A study of Mus musculus with 101 samples.

Results

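Germ cells of 34 mouse embryos from vehicle lineages are described here across 3 generations, as a measure of how far gene expression differs between generations when no toxicant was given. The members are the embryos whose column labels carry the oil (vehicle) treatment in generation F1, F2 or F3, 34 of the 101 embryos in the table. They come from 19 dams and split into 5 females and 5 males of F1, 6 females and 6 males of F2, and 6 females and 6 males of F3. In the study, pregnant founder (F0) mice were given sesame oil by mouth, alone or with the polycyclic aromatic hydrocarbon benzo[a]pyrene (BaP), and the gonadal germ cells of their descendants were sequenced at mid-gestation. The other 67 embryos belong to BaP lineages and serve below only for comparison.

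All 34 embryos were of the OG2 strain, homozygous for a transgene in which the Pou5f1 (Oct4) promoter drives EGFP. The tissue was the embryonic gonad, the sequenced cell type was the primordial germ cell, and the agent was the oil vehicle alone, so the groups differ in generation and sex and not in genotype or dose. Sex was read from gonad morphology at dissection, and EGFP-positive living cells were sorted. The sort rests on the Pou5f1 promoter, so the level of Pou5f1 itself is no independent check of the cells. F1 embryos are the offspring of the dosed F0 dams, and those dams received oil over a shorter window than the F0 founders of the F2 and F3 lineages. The dams that carried the F2 and F3 embryos were not dosed themselves. Between F1 and the later generations, generation, dosing window and whatever else differed between breeding rounds therefore change together and cannot be told apart. F2 and F3 share the dosing window, so in F3 against F2 only generation and breeding round change together. Embryos of 1 dam share a litter: 4 of the F1 dams, 6 of the F2 dams and 5 of the F3 dams gave 1 brother and 1 sister each, and F1 and F3 each had 1 dam with only a female and 1 with only a male.

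Primordial germ cells are the founders of eggs and sperm. They enter the gonad as cells that still express pluripotency genes, erase most of their DNA methylation, and then part by sex at mid-gestation, when germ cells of the ovary start meiosis under Stra8 and those of the testis enter mitotic arrest through Nodal signaling and Nanos2. Their chromatin is rebuilt in every generation, so they are a stage through which an inherited difference could pass.

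Expression is given as normalized counts, the authors' gene counts scaled to library size and between libraries by the trimmed mean of M values (TMM), which are not corrected for gene length. Reads per library, recovered from the values in 33 libraries and only estimated in the F3 female D1388.3, ran from 6393504 to 87240533 with a median of 8168393. Most of these numbers lie below the minimum of uniquely mapped reads that the paper gives for each library, and the reason was not tested. Of the 34 libraries, 3 stood apart in depth, with over 20000000 reads: the F1 males C4232.2 (87240533 reads) and C3774.3 (23833292) and the F1 female C4232.9 (54698496), a sister of C4232.2. They are called the deep libraries below, all are F1, and the other 31 held at most 12211582 reads. Depth is therefore partly tied to generation, and values without these 3 libraries stand beside many of the results. Reads carry no molecular identifiers, so they are not independent molecules.

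In every generation the cells carried germ cell transcripts, with the sex genes other than Xist, which was near the floor, on the side their label gives. Ddx4, an RNA helicase restricted to germ cells, had a lowest, median and highest normalized count of 222, 425 and 586 in F1, 170.3, 378 and 576 in F2, and 226, 484 and 715 in F3. Its ranges overlapped between generations. Dppa3, a protein that guards maternal methylation, stood at 2193 ± 725 (mean ± SD, n = 10) in F1, 1953 ± 528 (n = 12) in F2 and 1920.2 ± 604 (n = 12) in F3. Dazl, an RNA-binding protein that licenses germ cells for sexual development, stood at 1258 ± 442, 1063.97 ± 281 and 1221 ± 374 in the same order. Nanos3, which protects migrating germ cells from death, averaged 128, 85.9 and 106 in males and 45.9, 59.0 and 51.8 in females of the 3 generations. Pou5f1 ran from 10.9 to 161 over the 34 embryos, with means of 70.8 ± 41.7 in F1, 80.5 ± 34.7 in F2 and 79.4 ± 32.6 in F3. In the deep F1 libraries it averaged 37.7 against 85.1 in the other 7 F1 libraries.

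The sexes were separate in all 3 generations. Eif2s3y, a translation factor gene of the Y chromosome, was at 0 in all 17 females, and in the 17 males it ran from 115 to 380.0 with a median of 195. Lefty2, a feedback inhibitor of Nodal signaling, was at or below 0.670 in every female. In males it averaged 83.9 ± 11 (n = 5) in F1, 86.5 ± 11.9 (n = 6) in F2 and 86.8 ± 25.9 (n = 6) in F3. Tdgf1, the Nodal co-receptor, had male means of 20.7, 17.5 and 18.3 in F1, F2 and F3, and it reached at most 1.36 in females and at least 9.35 in males. Stra8, the gatekeeper of meiosis, averaged 447 ± 248 (n = 5) in F1 females, 399 ± 185 (n = 6) in F2 females and 407 ± 198 (n = 6) in F3 females. No male exceeded 14.1, and no female was below 62.9. Sycp3, a component of the meiotic chromosome axis, was present in both sexes and higher in females, with means of 702 ± 637 (n = 17) in females and 193 ± 107 (n = 17) in males. Lhx1, a transcription factor of the Nodal response, averaged 7.81, 8.41 and 7.97 in F1, F2 and F3 males and 1.22, 1.32 and 0.924 in females. Nanos2, which represses meiosis in males, was still low, with a median of 0.532 in F1 males, 0.841 in F2 males and 1.43 in F3 males, and it was at 0 in 14 of 17 females. Xist, the RNA that silences the inactive X chromosome, was near the floor in both sexes, with means of 0.445, 0.621 and 0.508 in F1, F2 and F3 females and 0.937, 0.420 and 0.459 in males. The label of the cells and of their sex thus stands on markers that the sort did not use.

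**Figure D1:**
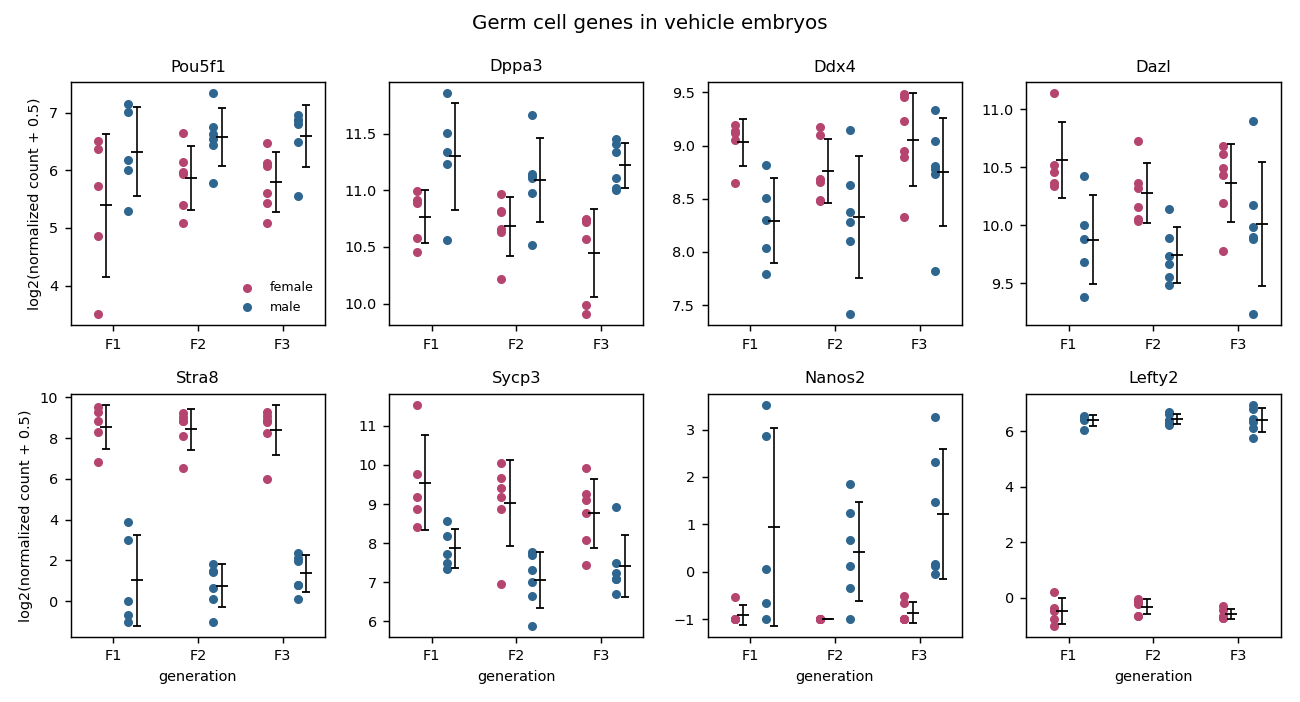
Each panel shows 1 germ cell gene, with log2 of the normalized count plus 0.5 on the vertical axis and the generation on the horizontal axis; points are single embryos, colored by sex, and bars are the mean ± SD of the 5 or 6 embryos of a group. Stra8 has a male minus female log2 difference of -7.08 or lower and Lefty2 of 6.75 or higher in each generation, while Ddx4, Dazl and Dppa3 overlap between generations.

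Whether germ cells differ between generations without exposure was asked gene by gene in a single linear model with generation and sex as terms and littermates linked through their dam. Among 13182 genes whose normalized count averaged 0.5 or more, limma with Benjamini-Hochberg adjustment called none (0%) at an adjusted p under 0.05, neither over the 3 generations at once nor in F2 against F1, F3 against F1 or F3 against F2. The smallest adjusted p values were 0.972, 0.989, 0.787 and 0.999 in that order. The 3 pairwise comparisons share their groups, so their values are not independent of each other. At an unadjusted p under 0.05 the test over all 3 generations held 434 genes (3.29%). The F2 against F1 comparison held 233 genes higher (1.77%) and 212 lower (1.61%), F3 against F1 held 514 higher (3.9%) and 301 lower (2.28%), and F3 against F2 held 144 higher (1.09%) and 70 lower (0.531%). A likelihood ratio test on the recovered reads in edgeR, with embryos as single units, called 21 genes over the 3 generations, 2 in F2 against F1, 15 in F3 against F1 and 0 in F3 against F2. The stricter quasi-likelihood test of edgeR called 10, 1, 1 and 0. Many of the genes called by either test had means close to the filter of 0.5. Among them, Gm11757 and Gm13871 had the same mean of 0.510. In the likelihood ratio test they also had the same log2 difference of -7.40 in F3 against F1, so they may not be separate calls. With the deep libraries left out, limma again called 0 genes in each comparison, with 180, 61, 301 and 331 at an unadjusted p under 0.05. The likelihood ratio test then called 2, 0, 3 and 0, and the quasi-likelihood test 2, 0, 2 and 0.

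The comparisons were tight enough to bound most differences. Of 8519 genes with a mean of at least 5, the 95% interval of the difference lay within 2-fold for 96.4% in F2 against F1, 95.3% in F3 against F1 and 98.2% in F3 against F2. It lay within 1.5-fold for 71.6%, 67.5% and 79.7%. The median standard error was 0.17, 0.17 and 0.16 log2 units. An estimated difference of more than 2-fold was found for 20, 16 and 2 of these genes. Sex accounted for 45.2% of the variance of the 13182 genes, and generation for 6.84% of what remained. When generation labels were permuted over dams 100000 times the share averaged 7.16%, with a 95th percentile of 10.04%, and the permutation p was 0.537 (one-sided).

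The genes with the smallest p values are given next, though none passed the adjustment in limma. Hist1h1e, a linker histone gene on chromosome 13 (GRCm38, 23620629 to 23622558), had a lowest, median and highest count of 9.61, 27.0 and 37.0 in F1, 7.34, 16 and 29.6 in F2, and 4.10, 12.6 and 28.4 in F3. The generations overlap, with F3 lowest on average. Its F3 against F1 log2 difference was -1.02 (95% interval -1.56 to -0.49, limma adjusted p = 0.787), and the edgeR likelihood ratio test called it at -1.05 with an adjusted p of 0.0440. Its F1 mean was 25.9 without the deep libraries and 26.4 with them, and without them its log2 difference was -0.96 and edgeR did not call it. Sfi1, a centriole protein gene on chromosome 11 (3131850 to 3193463), averaged 10.3 ± 6.01 in F1, 4.82 ± 0.997 in F2 and 5.79 ± 1.52 in F3. The deep libraries held 15.9 to 18.8, and the other 7 F1 libraries averaged 7.15, among them the male C4321.1 at 14.8. Its F2 against F1 log2 difference was -0.85 ± 0.22 (SE), with a limma adjusted p of 0.989, and the edgeR likelihood ratio test called it at an adjusted p of 0.0207. Without the deep libraries the log2 difference of Sfi1 was -0.43 in limma, and edgeR did not call it. Zfp187, a zinc finger gene, averaged 23.8 ± 13.8, 15.7 ± 2.28 and 13.3 ± 3.10 over the generations, and 17.9 in F1 without the deep libraries. Its F3 against F1 log2 difference was -0.72 (SE 0.20, limma adjusted p = 0.787), and the edgeR likelihood ratio test called it at an adjusted p of 0.0201. For Zfp187 too the call was absent without the deep libraries, where the limma log2 difference was -0.42.

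Higher in F3 than in F2 were Gorab, Samhd1 and Enpp2, with no call. Gorab, a Golgi protein gene on chromosome 1 (163384908 to 163403669), averaged 13.8 ± 2.68, 11.2 ± 2.01 and 16.5 ± 4.52 in F1, F2 and F3, a log2 difference of 0.50 ± 0.15 (SE) for F3 against F2. Samhd1, a nucleotide hydrolase that lowers the dNTP pool, sits on chromosome 2 (157097533 to 157135265) and averaged 42.2 ± 15.7, 42.1 ± 18.2 and 53.5 ± 18.0, a log2 difference of 0.39 ± 0.12. Enpp2, which encodes autotaxin and lies on chromosome 15 (54838901 to 54952892), was a male gene in all generations. Its male means were 16.5 ± 4.0, 19.2 ± 11.4 and 31.8 ± 9.08, its female means 1.08, 1.05 and 1.90, and its F3 against F2 log2 difference was 0.71 ± 0.22. The limma adjusted p of all 3 genes in F3 against F2 was 0.999.

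Features named Gm filled the other places among the smallest p values and are treated as uncertain, though how well their reads can be placed was not tested. Gm8994, annotated as protein-coding on chromosome 6, averaged 3.87, 6.37 and 7.47 over the generations, with an F3 against F1 log2 difference of 0.98 ± 0.25 (SE). Gm12504, a transcribed processed pseudogene on chromosome 4, averaged 8.88, 15.3 and 15.7, and Gm6251 27.6, 44.7 and 42.6. Both were lower in the deep libraries: Gm12504 held 0.527 to 1.17 in those and 6.37 to 20.9 in the other F1 libraries, and Gm6251 held 2.01 to 3.64 against at least 20.5. Of 114 annotated pseudogenes tested, 27 were higher and 0 lower in F3 than in F1 at an unadjusted p under 0.05 in limma, beside 3.9% and 2.28% of all genes. With the deep libraries left out 1 was higher and 1 lower, beside 174 higher and 127 lower of 13128 genes. No pseudogene was called at an adjusted p under 0.05 in limma.

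Several genes chosen after their values were seen show how far the deep libraries carried a difference. LOC100861668 was called by both edgeR tests in F2 and F3 against F1, and it held 4.08 to 19.5 in the 3 deep libraries and at most 0.345 in the 31 others. Its mean of 0.885 passed the filter of 0.5 only through the deep libraries. Its call is therefore no separate evidence of a generation difference. Slc7a11, the cystine importer of the stress response, averaged 6.45 ± 4.98, 9.74 ± 3.62 and 12.1 ± 3.95 in F1, F2 and F3. It held 0.510 to 0.975 in the deep libraries and 3.69 to 13.0 in the other F1 libraries. Xaf1, an interferon-induced gene, held 1.42 to 4.36 in the deep libraries and 22.3 to 109 in the other F1 libraries. Rps28, a small-subunit ribosomal protein gene, held 90.7 to 137 against 614 to 923. Its F3 against F1 log2 difference turned from 0.66 to -0.14 without the deep libraries, and that of Xaf1 from 1.0 to -0.27. With log2 of reads as a term in the fit these were -0.059 for Rps28 and -0.047 for Xaf1.

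A pair of platelet genes was called by the edgeR tests both with and without the deep libraries. Pf4 and Ppbp, neighboring chemokine genes on chromosome 5 that mark megakaryocytes and platelets, were chosen after their values were seen. Pf4 held 26.5 in the F1 male C4605.1, 14.7 in the F1 female D1961.1 and 19.7 in the F1 male D2580.2, and at most 2.04 in the other 31 embryos. Ppbp held 6.56, 18.5 and 20.1 in the same 3 embryos, at most 0.722 in the others, and 0 in all 12 F3 embryos. None of the 3 is a deep library. Without the deep libraries the edgeR likelihood ratio test called Pf4 at -5.04 (adjusted p = 0.000528), Ppbp at -8.83 (adjusted p = 0.000305) and the linker histone gene Hist1h1b at -0.92 (adjusted p = 0.0267) in F3 against F1. For Ppbp, at 0 in F3, the fitted value is no measure of a fold. In limma the log2 differences were -1.5 for Pf4 and -1.55 for Ppbp, each with an adjusted p of 0.792. Why limma and edgeR differ here was not tested.

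Among germ cell identity and pluripotency genes, limma called none between generations. Of 10 germ cell identity genes, 5 were higher and 5 lower in F2 than in F1, with a median log2 difference of -0.03, against -0.00 for all tested genes in F2 against F1 and F3 against F1 and 0.00 in F3 against F2. The median in F3 against F1 was -0.07 and in F3 against F2 -0.03, and 0 of the 10 reached an unadjusted p under 0.05 in limma in any pair. Leaving out the deep libraries gave 2 higher and 8 lower in F2 than in F1, with a median of -0.04. The summed count of the 10 was 4077 ± 574, 3598 ± 518 and 3833 ± 629 in F1, F2 and F3. Of 14 pluripotency genes, the medians were 0.06, 0.11 and -0.03 in F2 against F1, F3 against F1 and F3 against F2, an order kept for all lists below. These were 0.02, -0.04 and -0.03 without the deep libraries, with 8 of 14 lower in F3 than in F1. In F3 against F1 with all libraries, 1 pluripotency gene was higher and 2 lower at an unadjusted p under 0.05, beside 3.9% and 2.28% of all genes. These were Nanog, at 10.7 ± 4.67 in F1 and 16.3 ± 7.52 in F3, Sox2, at 13.6 ± 5.63 and 9.91 ± 6.41, and Sall4, at 118 ± 89.9 and 75.0 ± 18.5. F1 without the deep libraries averaged 11.8 for Nanog, 11.8 for Sox2 and 81.2 for Sall4, and 0 pluripotency genes reached that mark. Dppa5a, the member with the highest count, averaged 3032 ± 2030.0, 3116 ± 1519 and 2761 ± 1312.

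Meiosis genes were lower in F2 than in F1 for 22 of 24 members, with medians of -0.21, -0.10 and 0.07 and 0 members at an unadjusted p under 0.05 in any pair. The deep F1 female C4232.9 had a summed count of 11048 for the 24 genes, against at most 5740.2 in the 7 F1 libraries that were not deep. The meiosis medians without the deep libraries were -0.04, 0.03 and 0.07, with 14 of 24 lower in F2 against F1 and 14 of 24 higher in F3 against F1, and the part of each deep library alone was not tested. Sycp3 stood at 2954 in C4232.9, and its F1 female mean was 1040.09 ± 1087 (n = 5) beside 620.5 ± 316 (n = 6) in F2 and 501 ± 284 (n = 6) in F3. Syce2, a central element protein of the synaptonemal complex and the member with the highest count, averaged 1122 ± 444, 979 ± 387 and 827 ± 216. Of 10 genes of male fate and Nodal signaling the medians were -0.05, -0.03 and -0.00, or -0.07, 0.01 and -0.00 without the deep libraries. Of 8 DNA methylation genes the medians were -0.05, -0.08 and 0.01, with the maintenance methyltransferase Dnmt1 at 60.6 ± 12.2, 58.9 ± 8.02 and 53.2 ± 6.49. The DNA methylation medians were -0.06, -0.04 and 0.01 without the deep libraries. In that fit 1 of the 8 was lower in F3 than in F1 at an unadjusted p under 0.05, beside 127 lower of all 13128 genes. Of 11 piRNA pathway genes, which silence transposons, the medians were -0.17, -0.07 and 0.13, and all 11 were higher in F3 than in F2 without any at an unadjusted p under 0.05. With the deep libraries left out the piRNA medians were -0.03, 0.11 and 0.13, and 2 of the 11 were higher in F3 than in F2 at that mark, beside 211 higher of all 13128 genes in that fit. Fkbp6, a co-chaperone of that pathway, averaged 589 ± 154, 511 ± 159 and 516 ± 152.

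Imprinted genes, whose marks are erased and reset in these cells, had medians of 0.09, 0.02 and -0.00 over 19 tested, or 0.01, 0.02 and -0.00 without the deep libraries. Phlda2, an imprinted regulator of placental growth, averaged 1074 ± 341 in females and 11.4 ± 10.7 in males. In males it stood at 18.7 ± 13.3 (n = 5), 10.9 ± 11.3 (n = 6) and 5.75 ± 2.01 (n = 6) over the generations, and the F3 against F1 log2 difference over both sexes was -0.84 ± 0.32 (SE). Mest, also imprinted, averaged 11.2 ± 7.74, 12.4 ± 9.58 and 16.9 ± 13.3. Both were chosen after their values were seen, and the limma adjusted p of F3 against F1 was 0.792 for each.

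Cell cycle genes were mostly higher after F1 in all libraries and less so without the deep ones. Of 24 proliferation genes, 19, 20 and 14 were higher in F2 against F1, F3 against F1 and F3 against F2, with medians of 0.14, 0.13 and 0.03, the last of which was -0.02 under upper-quartile scaling. In F3 against F1, 5 were higher and 0 lower at an unadjusted p under 0.05 in limma, beside 3.9% of all genes. Among them, Ccnb1, the mitotic cyclin, averaged 913 ± 287, 1027 ± 272 and 1126 ± 224, and Plk1, a mitotic kinase, 34.1 ± 14.0, 42.4 ± 14.7 and 56.7 ± 22.4. Racgap1, a cytokinesis gene outside the list that was chosen after its values were seen, averaged 50.9 ± 14.9, 61.8 ± 16.2 and 77.2 ± 19.4. Its F3 against F1 log2 difference was 0.63 ± 0.17 (SE), with a limma adjusted p of 0.787. The medians of the list without the deep libraries were 0.02, 0.05 and 0.03, with 14 of 24 higher in F2 against F1, and 1 of 24 reached an unadjusted p under 0.05 in F3 against F1, beside 174 higher of all 13128 genes in that fit.

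Ribosomal protein genes showed small differences whose direction depended on the pair compared and on the deep libraries. All 83 were lower in F3 than in F2, with a median log2 difference of -0.17 and 0 at an unadjusted p under 0.05. In F2 against F1, 74 were higher, with a median of 0.21, and 19 were higher at an unadjusted p under 0.05 beside 1.77% of all genes. In F3 against F1 the median was 0.03, with 48 higher and 35 lower and 5 higher at that mark, beside 3.9% of all genes. Without the deep libraries the medians were 0.05, -0.12 and -0.17, and all 83 were lower in F3 than in F1. In that fit 0 were at that mark in F2 against F1. In F3 against F2, 4 were lower at it, beside 120 lower of all 13128 genes. The direction in F3 against F1 therefore turned on 3 libraries, and with upper-quartile scaling it was -0.00. The summed count of the 83 genes was 79921 ± 17754 in F1, 88549.9 ± 10646 in F2 and 79136 ± 12110.1 in F3. Nuclear genes of the respiratory chain, 77 tested, had medians of 0.11, 0.00 and -0.15, and 65 of 77 were lower in F3 than in F2. With the deep libraries left out their medians were 0.00, -0.15 and -0.15, and 63 of 77 were lower in F3 than in F1. Atp5g1, an ATP synthase subunit, averaged 1931 ± 699, 1986 ± 494 and 1740.0 ± 440.1. No gene encoded by the mitochondrion itself is in the table.

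Replication-dependent histone genes were lower in F3 than in F2 without exception. They code for the histones made in S phase from short messages without a poly(A) tail, they lie in clusters of near-identical copies that share reads, and the libraries were primed on poly(A), so their levels are uncertain. All 65 tested lay below F2 in F3, with a median log2 difference of -0.43, and 13 were lower at an unadjusted p under 0.05 in limma beside 0.531% of all genes. In F3 against F1, 48 were lower, 10 of them at that mark beside 2.28% of all genes, with a median of -0.21. In F2 against F1 the median was 0.17. The summed count of the list had a lowest, median and highest value of 5995, 10355 and 26205 in F1, 8251, 10991 and 16700.0 in F2, and 1911, 9917 and 13168 in F3. The groups overlapped, with the lowest value in the F3 male D3402.3 and the highest in the deep F1 male C3774.3. Without the deep libraries the medians were 0.05, -0.39 and -0.43, with 8 lower at an unadjusted p under 0.05 in F3 against F1 and 22 in F3 against F2, beside 127 and 120 lower of all 13128 genes in that fit. Hist1h2ao, the member with the highest count, averaged 3421 ± 1441, 3516 ± 856 and 2650.3 ± 950.5. Hist1h2ag, chosen after its values were seen, averaged 1937 ± 1578, 1318 ± 355 and 993 ± 429, and its F1 mean was 1307 without the deep libraries. Of 70 small noncoding RNA genes the medians were -0.06, -0.18 and -0.12, and in F3 against F1 2 were higher and 11 lower at an unadjusted p under 0.05, beside 3.9% and 2.28% of all genes. With the deep libraries left out 1 was higher and 6 lower of 71 tested, beside 174 higher and 127 lower of 13128 genes. Mir684-1, which had the highest count of these, averaged 1039.5 ± 798, 654 ± 157 and 862 ± 981, and 645 in F1 without the deep libraries. Mature small RNAs are not captured by poly(A) priming, so these reads are uncertain too.

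Stress and metabolic lists had medians of at most 0.19 in size. The 13 genes of the integrated stress response, many of which serve amino acid supply, had medians of 0.15, 0.19 and 0.06 and were all higher in F2 than in F1. In F3 against F1, 2 were higher at an unadjusted p under 0.05 beside 3.9% of all genes, and without the deep libraries the medians were 0.08, 0.12 and 0.06 with 0 at that mark. Asns, asparagine synthetase, averaged 127 ± 61.7, 127 ± 50.2 and 133 ± 64.0. Of 20 genes of glycolysis and hypoxia the medians were 0.08, 0.09 and 0.02, or 0.02, 0.03 and 0.02 without the deep libraries, with Eno1, enolase, at 501 ± 303, 506 ± 271 and 567 ± 311. Immediate early genes, which answer handling and dissociation, had medians of 0.05, 0.12 and 0.11 over 17, and Dusp1 averaged 79.1 ± 32.5, 62.4 ± 22.3 and 71.7 ± 27.4. Heat shock genes had medians of 0.04, 0.05 and 0.10 over 12, or -0.02, -0.03 and 0.10 without the deep libraries, with the chaperone Hsp90aa1 at 3559 ± 665, 3508 ± 518 and 3561 ± 515. Cholesterol synthesis genes had medians of -0.00, 0.10 and 0.09 over 20, with Fdps at 518 ± 110.5, 516 ± 106 and 509.7 ± 122. Circadian clock genes had medians of -0.00, 0.05 and -0.02 over 13, with Nr1d2 at 32.1 ± 7.02, 29.3 ± 7.49 and 34.4 ± 22.2. Interferon response genes had medians of 0.02, 0.05 and 0.09 over 8, or -0.14, -0.06 and 0.09 over 9 without the deep libraries, with Bst2 at 64.5 ± 12.6, 71.5 ± 18.5 and 64.0 ± 18.7. Of 14 p53 targets the medians were 0.06, 0.04 and -0.06, or 0.10, 0.10 and -0.06 without the deep libraries, with the apoptosis effector Bax at 245 ± 92.7, 253 ± 87.1 and 231 ± 90.7. Of 7 targets of the aryl hydrocarbon receptor, the receptor that BaP activates, 3 were tested, with medians of -0.11, 0.03 and 0.14 and 0 at an unadjusted p under 0.05. Tiparp, the highest of these, averaged 34.4 ± 19.4, 27.8 ± 12.5 and 34.3 ± 20.8.

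**Figure D2:**
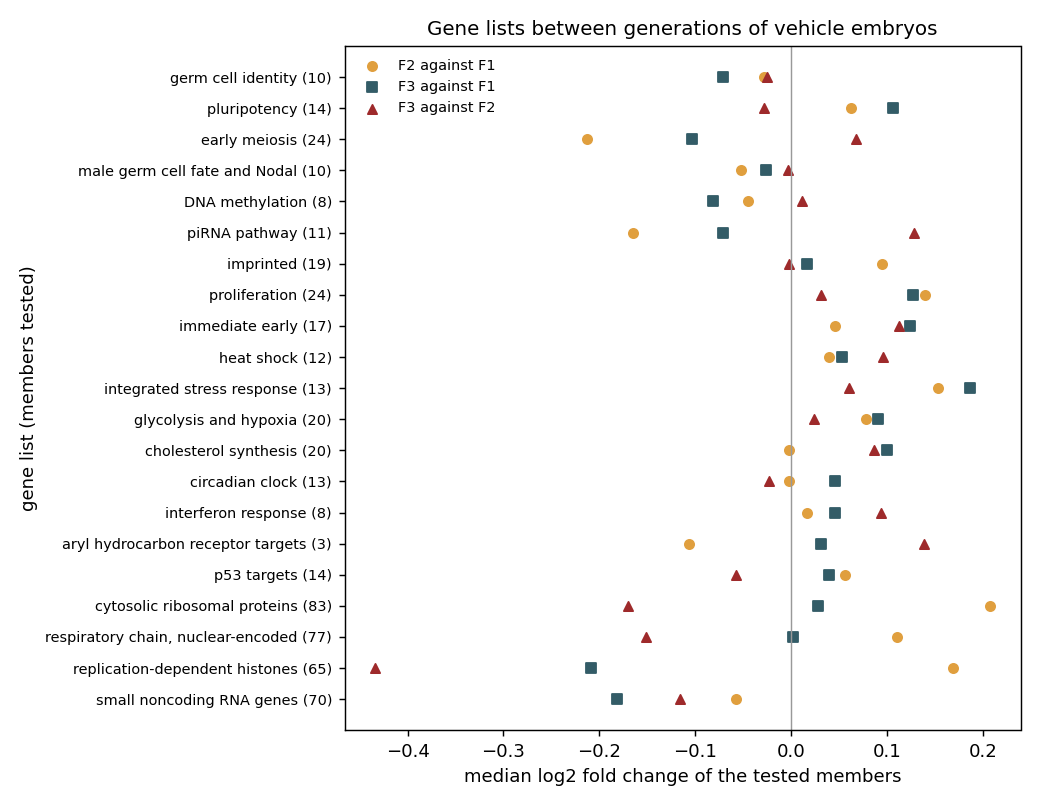
Each point is the median log2 difference of the tested genes of 1 list, on the horizontal axis, for F2 against F1, F3 against F1 and F3 against F2, with the lists on the vertical axis. Replication-dependent histones reach -0.43 in F3 against F2, while germ cell identity genes lie between -0.07 and -0.03.

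Genes of other cell types of the gonad and blood were read in these embryos, although the sort kept EGFP-positive cells. In bulk RNA, fewer cells of a type and less RNA per cell cannot be told apart. Each summed count takes in all listed genes found in the table, tested or not. The macrophage list stood out in F3. Of 13 macrophage genes 10 were tested, and all 10 were lower in F3 than in F2, 6 of them at an unadjusted p under 0.05 in limma beside 0.531% of all genes, with a median log2 difference of -0.90. In F2 against F1, 9 of 10 were higher, with a median of 0.47. All 10 were lower in F3 than in F1 too, with a median of -0.40. Of these 1, the platelet gene Pf4, reached an unadjusted p under 0.05, beside 2.28% of all genes. The macrophage medians without the deep libraries were 0.40, -0.65 and -0.90, with 3 lower at that mark in F3 against F1 beside 127 of all 13128 genes in that fit. The summed count of the list had a lowest, median and highest value of 3.31, 25.4 and 52.2 in F1, 10.1, 28.9 and 49.0 in F2, and 0.801, 13.8 and 40.8 in F3. The ranges overlapped, and 4 F3 embryos were near 0: the sister and brother D1388.3 (0.801) and D1388.1 (1.14), the male D3523.1 (1.47) and the female D3526.1 (3.06). The list also holds the platelet gene Pf4, which made up 26.5 of the 38.2 of C4605.1, 19.7 of the 38.3 of D2580.2 and 14.7 of the 52.2 of D1961.1 in F1. C1qb, a complement subunit made by macrophages and the member with the highest count, was at 0 in these 4 F3 embryos and in the deep F1 male C3774.3, and averaged 4.26 ± 2.57, 6.17 ± 3.29 and 3.28 ± 3.44. Tyrobp, an adaptor of myeloid receptors chosen after its values were seen, averaged 3.08 ± 1.27, 4.41 ± 1.56 and 2.59 ± 1.85. Its F3 against F2 log2 difference was -0.96 ± 0.32 (SE), with a limma adjusted p of 0.999.

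Sertoli cell genes were read in males, at levels that differed between males of a generation. The summed count of 13 Sertoli genes was 545 ± 350.3 in F1 males, 844 ± 295 in F2 males and 729.8 ± 459 in F3 males, and 28.3, 22.3 and 22.9 in females. In the fit over both sexes all 13 were higher in F2 than in F1, with a median log2 difference of 0.46, and all 13 were lower in F3 than in F2, with a median of -0.33 and 0 at an unadjusted p under 0.05 in either. The Sertoli medians without the deep libraries were 0.17, -0.23 and -0.32, so that F3 against F1 turned from 11 of 13 higher to 13 of 13 lower. Cst9, a Sertoli cystatin and the member with the highest count, ran from 18.6 to 762 in males and was at most 0.392 in females. Stroma was represented by 3 tested genes of 10, with medians of -0.03, 0.51 and 0.54, and -0.15, 0.39 and 0.54 without the deep libraries. The highest F3 values came from 1 litter: the summed count was 86.9 in D1388.1 and 32.1 in its sister D1388.3, and at most 7.75 in the other F3 embryos. Dcn, a matrix proteoglycan, held 44.3 and 14.2 in this pair and at most 2.63 in the other 10 F3 embryos, so its F3 mean was 5.62 ± 12.8. The same brother D1388.1 had the highest erythroid sum, 5985, with the globin gene Hba-a1 at 2378. The erythroid sum had medians of 2.61, 3.32 and 2.03 in F1, F2 and F3, with further high values in the F1 male D2580.2 (1129) and the F2 littermates D2991.1 (253) and D2991.3 (1666).

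Other cell types gave low sums. The endothelial sum was 41.4 ± 10.8, 41.0 ± 10.6 and 41.8 ± 11.6, with Pecam1 at 28.9, 28.3 and 27.5. That gene is also made by germ cells themselves. The mast cell sum was highest in C4232.2 of F1 at 44.4, D2991.1 of F2 at 38.2 and D3133.5 of F2 at 18.8, and Cpa3, its member with the highest count, was at 0 in 24 of 34. The fetal Leydig list had medians of 0.38, 0.26 and -0.30, pregranulosa 0.13, -0.03 and -0.11, mesonephric 0.30, 0.02 and -0.28, keratinocyte 0.18, -0.01 and -0.14, endothelial 0.03, 0.11 and 0.12, mast cell 0.22, -0.75 and -0.97 and erythroid 0.56, -0.06 and -0.52. With the deep libraries left out these were 0.07, -0.23 and -0.30 for fetal Leydig, 0.06, 0.00 and -0.11 for pregranulosa, 0.42, 0.14 and -0.28 for mesonephric, 0.08, -0.04 and -0.14 for keratinocyte, -0.13, -0.01 and 0.12 for endothelial, 0.86, -0.12 and -0.97 for mast cell and 0.20, -0.10 and -0.52 for erythroid. Lists of 1 to 5 tested genes such as these turn on few genes. Fetal Leydig, pregranulosa and mesonephric sums averaged at most 6.75, 4.78 and 0.988 in any generation. Their highest members, Hsd3b1, Rspo1 and Pax8, averaged 2.27, 1.88 and 0.633 over the 34 embryos. The keratinocyte sum was 27.8, 30.3 and 27.8, and its member with the highest count, Dsp, averaged 18.0 in females and 4.40 in males. The 5 genes of the Y chromosome summed to 185 to 486 in males and at most 0.216 in females. The part of these other cells in the generation differences was not tested.

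**Figure D3:**
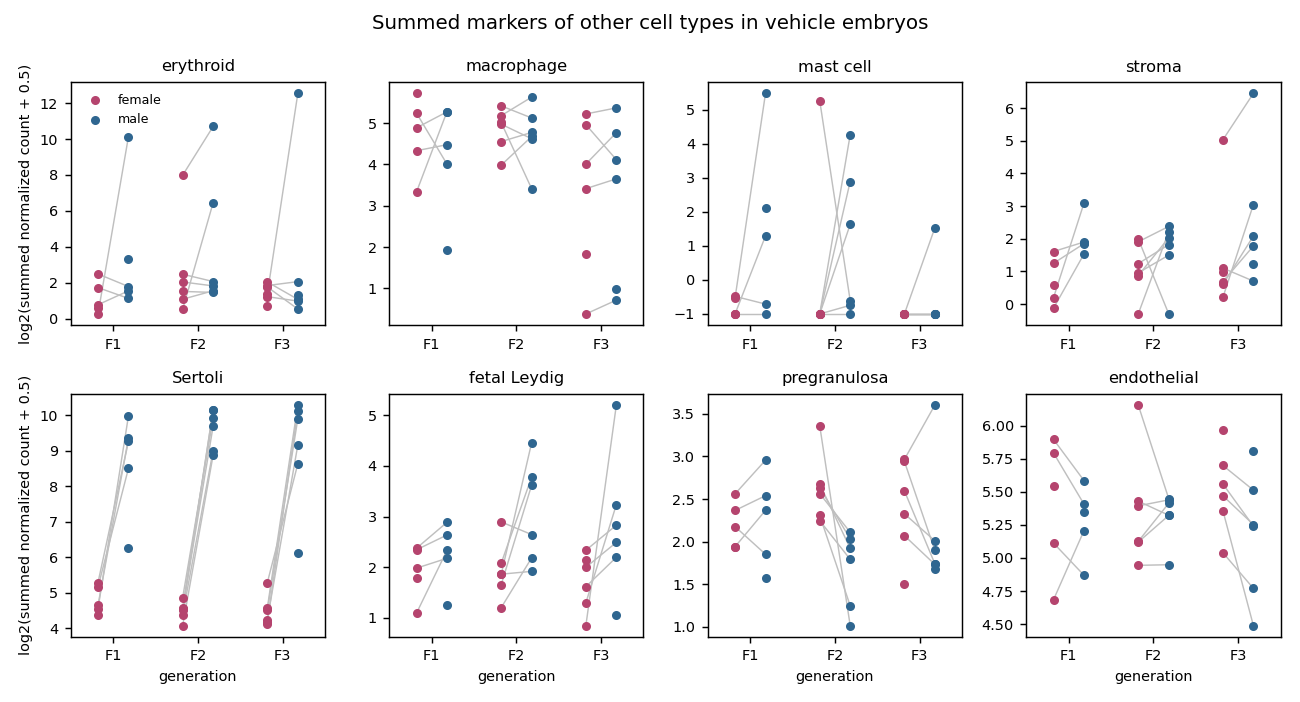
Each panel shows 1 list of cell type markers, with log2 of the summed normalized count plus 0.5 on the vertical axis and the generation on the horizontal axis; points are embryos, colored by sex, and lines join littermates. The macrophage sum of F3 reaches down to 0.801, the erythroid sum reaches 5985 in 1 F3 male, and the Sertoli sum separates males from females.

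Sex differences had similar median sizes in the 3 generations among genes chosen for a large sex difference. In the same fit limma called 8098 genes by sex, 4010 higher in males and 4088 higher in females. Fitted within each generation it called 4820 in F1, 5143 in F2 and 5012 in F3. Taking the 2145 genes with an adjusted p under 0.05 and more than a 2-fold difference over all 34 embryos, 1054 male and 1091 female, the sign was that of the whole set in each generation for 100%. The median male minus female log2 difference of the 1054 male genes was 1.43, 1.5 and 1.46 in F1, F2 and F3, and that of the 1091 female genes was -1.40, -1.37 and -1.42. The choice of these genes over all embryos favors both the shared sign and the shared size. Stra8 had a male minus female log2 difference of -7.46, -7.68 and -7.08, Lefty2 of 6.85, 6.75 and 6.97, Tdgf1 of 4.96, 4.28 and 4.65, and Lhx1 of 2.37, 2.30 and 2.55.

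A test of the sex by generation interaction in limma called 0 of 13182 genes (0%), with a smallest adjusted p of 0.918 and 290 genes (2.2%) at an unadjusted p under 0.05. Both edgeR tests called 0 as well. The leading gene was Osbpl6, a lipid transfer protein gene on chromosome 2 (76406508 to 76600647). Males held 0.532 to 1.28 in F1, 1.71 to 2.44 in F2 and 0.732 to 1.35 in F3, so F2 males lay above all other males, while females averaged 9.37, 7.79 and 9.42. The male minus female log2 difference was -2.93, -1.64 and -2.63, and the adjusted p of the interaction was 0.918. Next were Zbtb24, a zinc finger gene needed for methylation of satellite repeats, with log2 differences of 0.33, 0.05 and -0.36, and Zfp229, with -0.84, 0.11 and 0.44. Both had an interaction adjusted p of 0.9999 in limma. Fitted for each sex alone, limma called 0 of 12834 genes in females and 0 of 13054 in males over the generations. At an unadjusted p under 0.05 females held 468 genes over the 3 generations and males 250. For F2 against F1 these were 233 and 440, for F3 against F1 867 and 418, and for F3 against F2 551 and 125.

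Littermates resembled each other beyond sex and generation. After the mean of each sex and generation was taken out, the values of brother and sister over 8519 genes correlated with a median r of 0.325 over 15 pairs, from -0.390 to 0.655, and 11 pairs exceeded 0.1. Males and females of different dams in the same generation had a median r of -0.042 over 82 pairs, from -0.569 to 0.619, and 25 exceeded 0.1. These correlations are across genes, which are not independent replicates, and members of a pair share a dam. The consensus correlation of littermates in the limma fit was 0.21. The litter is thus a unit on which these embryos differ, and each generation rests on 6 or 7 litters.

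The same contrasts among the 67 embryos of BaP lineages, 37 dams, give a second look at the generations with other animals. There limma, with dose as a further term, called 0 of 13351 genes, with a smallest adjusted p of 0.110 over all generations and 1860 genes (13.9%) at an unadjusted p under 0.05. In F3 against F1 the smallest adjusted p was 0.106, with 2686 genes (20.1%) at that mark, in F2 against F1 1372 genes (10.3%) and in F3 against F2 317 genes (2.37%). With embryos as single units, 72 genes were called over the generations. All 8 deep libraries of these lineages were also F1. Over 13098 genes measured in both, the F3 against F1 log2 differences of vehicle and BaP embryos correlated with r = 0.545, and of the 814 vehicle genes at an unadjusted p under 0.05, 743 (91.3%) had the same sign in the BaP lineages, beside 70.0% of all genes. Without the deep libraries, 31 vehicle and 59 BaP embryos, r was 0.303, and 233 of 297 genes (78.5%) shared the sign, beside 63.9% of all. For F2 against F1, r went from 0.343 to -0.019 and the share from 364 of 443 (82.2%, beside 61.8% of all genes) to 30 of 58 (51.7%, beside 50.7%). For F3 against F2 there was no likeness, with r = -0.087 and 48.4% of 213 genes of the same sign, beside 51.5% of all genes. These correlations too are across genes, and no sample is shared between vehicle and BaP embryos.

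Hist1h1e was lower in F3 than in F1 in both, by a log2 difference of -1.02 in vehicle and -0.78 in BaP embryos. Hist1h1b, named after its values were seen, stood at -0.62 and -0.56. The 65 histone genes had medians in the BaP lineages of -0.07, -0.16 and -0.12, the 83 ribosomal genes of 0.04, 0.02 and -0.04, and the 24 proliferation genes of 0.14, 0.26 and 0.08. The macrophage list ran the other way, with all 10 genes higher in F3 than in F2 and a median of 0.89 in the BaP lineages, against -0.90 in vehicle embryos. Sertoli genes had medians of -0.29, -0.20 and 0.06 there, against 0.46, 0.10 and -0.33 in vehicle embryos, or 0.17, -0.23 and -0.32 without the deep vehicle libraries. The BaP medians of all these lists include the 8 deep BaP libraries, and medians without those were not computed. Meiosis genes had 0 of 24 higher in F3 than in F2 in the BaP lineages, against 19 of 24 in vehicle embryos. Whether vehicle and BaP lineages differ in these contrasts was not tested.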

How the data were processed

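Gene expression was measured by RNA sequencing in germ cells sorted from single mouse embryos. The authors trimmed reads with Trim Galore, aligned them with STAR to mm10, counted exons with Rsubread and scaled counts by TMM in edgeR, and the deposited unit is signal, taken as counts scaled to library size by TMM. Whole read counts were taken as recovered from these values in 33 of 34 vehicle libraries. Over all 34 libraries, the lowest share of values within a tolerance of 0.05 of whole reads was 100%. All 101 columns were mapped, with 0 columns not mapped, and littermates were taken from the dam in the label, checked by the likeness of brothers and sisters.

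Values were analyzed in R 4.3.3 with limma 3.58.1 (mean-variance trend) on log2 of the value plus 0.5, for genes with a mean of at least 0.5, with generation and sex as terms, the dam as a block and Benjamini-Hochberg adjustment at 0.05. Count tests on recovered reads used edgeR 4.0.16 and left out the F3 female D1388.3. That library was not among those taken as recovered, though its values met the tolerance, so its depth is treated as an estimate. The interaction was fitted on 6 groups, each sex was also fitted alone, and the share of variance was tested by permuting dams 100000 times. The same contrasts were fitted in 67 BaP embryos. The pipeline was tested on simulated data.

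Genes named are those with the 3 smallest p and a mean of at least 5 in each test without calls (if any had been called, up to 6 per direction, or 10 overall), the member with the highest count of each list, and check genes of germ cell identity and sex. Some of these genes, and 1 marker list, are not reported here. Members and lists were chosen with earlier results of these data known. Alternatives were the pseudocount, the filter, the count tests, upper-quartile scaling, no replicate block, a depth term, 6 groups in place of an additive sex term, and leaving out deep libraries, each embryo or each litter. The edgeR tests without deep libraries and the BaP comparison without them were added after the data were seen. Dose effects of BaP are left out, since the comparison concerns generations without exposure.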

Additional observations from a re-analysis of the deposited data

Results flagged for a closer look

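Within each sex and generation, a value was singled out when its distance to the nearest other embryo was large for the range of its group (Dixon's test). This held in 38 of 234 groups tested (16.2%), where chance gives about 1 in 20 for normal values. Many of the values here are skewed or mostly 0, and marker sums and genes are not independent of each other, so the share is no measure of an excess.

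Many of these values belonged to few embryos. The deep F1 female C4232.9 stood apart in recovered reads (54698496), Dazl (2251), Sycp3 (2954), Zfp187 (44.5), Zfp229 (9.05) and Nanos2 (0.191, where her group was otherwise at 0). Her brother C4232.2 stood apart in reads (87240533) and the mast cell sum (44.4), and the deep F1 male C3774.3 in Zfp187 (53.5) and in the share of the 50 most abundant genes (30.9%). The F2 male C4988.2 had 12211582 reads.

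The F3 littermates of dam D1388 stood apart in markers of other cell types. The brother D1388.1 was high in the erythroid (5985), stroma (86.9), fetal Leydig (36.3) and pregranulosa (11.7) sums and in Enpp2 (48.9), and the sister D1388.3 in the stroma (32.1) and Sertoli (38.6) sums and in Xist (1.30). The F2 female D3133.2 was high in the endothelial (70.9), keratinocyte (41.5), pregranulosa (9.79) and fetal Leydig (6.94) sums and in Xist (2.11). The F3 male D3402.3 was high in Eif2s3y (380.0), the Y-linked sum (486), Sycp3 (489) and Zfp229 (20.05).

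Single high values were the erythroid sum of the F1 male D2580.2 (1129), the F2 female D2991.1 (253) and the F2 male D2991.3 (1666), the mast cell sum of D2991.1 (38.2), the F2 male D3133.5 (18.8) and the F3 male D3612.2 (2.40), the stroma sum of the F1 male C4321.1 (8.05), the Y-linked sum of the F1 female C4321.6 (0.216) and Nanos3 in the F3 female D3526.1 (101). The endothelial sum of D2991.3 was low (30.4). The causes were not tested.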

How the results depend on the processing

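In limma the count of genes called between generations and for the interaction was 0 under all alternatives run, the replicate block left out included. Only the count tests moved it: the edgeR likelihood ratio test called 21 genes over the 3 generations, 2 in F2 against F1 and 15 in F3 against F1, and 2 over the 3 generations and 3 in F3 against F1 without the deep libraries. The edgeR quasi-likelihood test called 10, 1 and 1, and 2 over the 3 generations and 2 in F3 against F1 without the deep libraries. Many of the genes called with all libraries had means close to the filter. In the BaP lineages limma called 72 genes without the replicate block. The generation share of variance ranged from 5.78% to 7.18%.

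Of 13 alternatives other than leaving out embryos or litters, the edgeR tests without the deep libraries were read for counts only and gave no gene values. Over the rest, 559 of 587 gene values kept their direction and side of the threshold, 7 passed it only in a count test and 21 changed sign. The F3 against F1 log2 differences that changed sign were Tdgf1 at 0.12 with a pseudocount of 0.1 and Stra8 at -0.068 with a pseudocount of 1. Without the deep libraries they were Pou5f1 -0.10, Dazl 0.10, Tdgf1 0.17, Rps28 -0.14, Rps29 -0.12 and Xaf1 -0.27. With log2 reads as a term they were Pou5f1 -0.075, Dazl 0.11, Tdgf1 0.039, Rps28 -0.059, Rps29 -0.12 and Xaf1 -0.047. In the likelihood ratio test they were Stra8 -0.59, Nanos2 -0.57, Tdgf1 0.048 and Lefty2 0.0087, and in the quasi-likelihood test Stra8 -0.63, Nanos2 -0.52 and Lefty2 0.0022.

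Leaving out each of 34 embryos or 19 litters kept 2858 of 2913 gene values, and 55 changed sign. The ranges were -0.14 to 0.094 for Dazl, -0.045 to 0.077 for Eif2s3y, -0.14 to 0.067 for Lefty2, -0.20 to 0.047 for Lhx1, -0.068 to 0.47 for Nanos2, -0.22 to 0.034 for Nanos3, -0.36 to 0.50 for Stra8 and -0.097 to 0.13 for Tdgf1. The causes were not tested.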
